A study of Citrus x limon with 9 samples.

Results

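The NAC genes are one of the largest families of transcription factors in plants, and they were examined here in buds of lemon (Citrus x limon, cultivar Femminello) around a water deficit that induces flowering. A gene was taken as a member when its best protein match in the deposited table contained the words NAC domain, NAC transcription factor or cup-shaped cotyledon. This rule found 43 of the 22353 genes in the table. Of the 43 members, 33 had at least 1 FPKM (fragments scaled by gene length and library size) in at least 3 of the 9 libraries, and only these 33 were tested, among 17729 genes that passed the same filter.

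Buds were collected at 3 stages from young trees that had been bud-grafted onto trifoliate orange and grown in pots in a greenhouse. Stage 1 buds came from trees 1 week before the deficit, under regular watering. Stage 2 buds were taken 1 week into the deficit, while the soil was held at a reduced moisture. Stage 3 buds were taken 1 week after full irrigation had returned. Each stage had 3 biological replicates, and a sample pooled the terminal bud with the buds below it, on spring shoots. All trees passed through the same sequence, and no libraries of trees watered throughout on the same dates were analysed here. Water supply, calendar date and the development of the buds therefore cannot be told apart. The buds held several cell types, and in such samples fewer cells of a type and less RNA per cell cannot be told apart either.

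NAC proteins share a conserved DNA-binding domain at the N terminus, which gave the family its name (NAM, ATAF and CUC), and a variable C terminus that activates or represses transcription. In Arabidopsis, CUP-SHAPED COTYLEDON (CUC) proteins define the boundaries between organs and keep the shoot meristem in place. Other members respond to drought and abscisic acid, direct leaf senescence, switch on secondary wall synthesis in vessels and fibres, or wait in membranes until a protease releases them. The NAC number in a best match follows the Arabidopsis numbering and was assigned automatically, so the roles given here are those of the named relative and not of the lemon gene.

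To compare the stages, a gene was called when its Benjamini-Hochberg adjusted p from limma was under 0.05 and its log2 fold change on the log2(FPKM + 1) scale was at least 1 in size. This scale understates the change of genes with low FPKM, so ratios of mean FPKM are also given. The libraries were close in median level. Medians were taken over genes above 0 in all 9 libraries. They were 13.3 to 13.5 FPKM at stage 1, 13.8 to 14.6 at stage 2 and 13.5 to 13.9 at stage 3. Genes above 0 numbered 19956 to 20099 at stage 1, 19210 to 19579 at stage 2 and 19716 to 19752 at stage 3. Each stage 2 library thus had fewer genes above 0 than every library of the other stages. The part of this in the values of low members was not tested. The highest median and the fewest genes above 0 were both those of replicate 3 of stage 2 (14.6 FPKM and 19210 genes), where the other stage 2 libraries had medians of 13.8 and 13.9 FPKM and 19531 and 19579 genes. Without it, Cs5g04680 was no longer called at stage 2 against stage 1 (log2 fold change -0.98), and at stage 3 against stage 2 Cs1g09640 (0.92) and Cs3g27630 (0.98) were no longer called, which left 3 in place of 5 members called higher there. Markers of the shoot meristem were present in the buds. The SHOOT MERISTEMLESS-like gene Cs2g02590, the KNOX factor that maintains the shoot meristem, averaged 57.3 ± 4.87 FPKM at stage 1, 70.5 ± 4.99 FPKM at stage 2 and 70.5 ± 4.90 FPKM at stage 3 (SD, n = 3 each). The most abundant marker of the list, the KNOX gene Cs3g16460, also rose, averaging 77.1, 128 and 144 FPKM at stages 1, 2 and 3. The remaining KNOX genes, Cs7g08990, Cs3g15150 and Cs5g05700, were lower at stage 2 than at stage 1. Cs3g15150 averaged 9.51, 6.54 and 7.26 FPKM, and the WUSCHEL-like gene Cs1g25270 averaged 1.02, 0.06 and 0.817 FPKM. Of the 10 genes of the meristem list 6 were tested, and none of these 6 was called in any comparison. Their median log2 fold change at stage 2 against stage 1 was -0.48. With Cs3g16460 and Cs2g02590 as the main part, the 10 genes summed to 170 to 179 FPKM at stage 1, 221 to 234 at stage 2 and 245 to 255 at stage 3. Of 13 tested floral organ markers, matched by name, 1 was called higher and 1 lower at stage 2 than at stage 1. None of the 4 phloem markers was called in any comparison. Of the 7 tested markers of green leaf, 3 were called higher at stage 2 than at stage 1, beside 3.18% of all genes tested. At stage 3 against stage 1, 4 of these 7 green leaf markers were called higher, beside 2.69%. Their summed level was 2010 to 2070 FPKM at stage 1, 3170 to 3880 FPKM at stage 2 and 3890 to 4620 FPKM at stage 3. The part of this shift in the NAC values below was not tested.

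The NAC family was expressed at modest levels, with a few abundant members. The median over the tested members of the mean FPKM was 5.11, against 13.6 over all genes tested. 10 members averaged at least 10 FPKM, 20 lay between 1 and 10 FPKM, and 3 were under 1 FPKM. Together the 43 members summed to 610 to 633 FPKM at stage 1, 572 to 604 FPKM at stage 2 and 586 to 616 FPKM at stage 3, which is 0.09% to 0.101% of all FPKM in a library. The 4 most abundant members, Cs7g22420 (NAC7-like), Cs3g19890 (NAC2-like), Cs1g06760 (NAC72-like) and Cs3g24450 (NAC29-like), made up 58.1% to 60.8% of the family sum in each library.

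**Figure D1:**
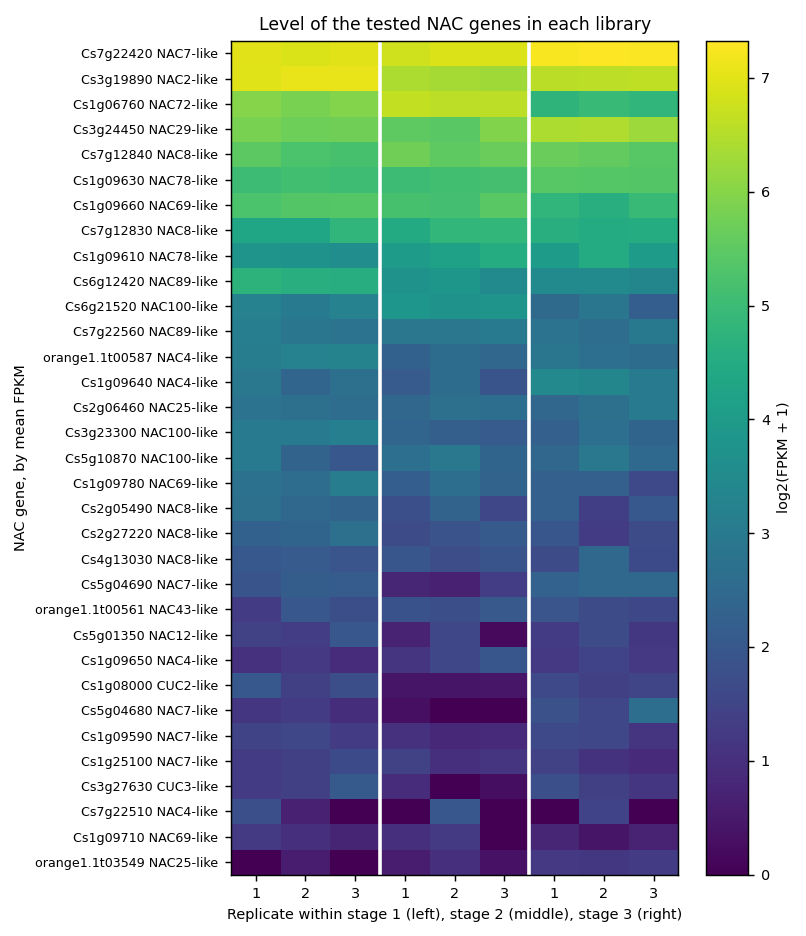
Level of the 33 tested NAC genes as log2(FPKM + 1), with 1 row per gene in order of mean FPKM and 1 column per library (replicates 1 to 3 of stages 1, 2 and 3). The top rows are bright in every library, while the low rows Cs5g04680 and Cs1g08000 are darkest in the stage 2 columns.

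At stage 2 against stage 1, 4 of the 33 members were called (12.1%), and 7.85% of all genes tested were called. All 4 were lower under water deficit (4.66% of all genes tested) and 0 were higher (3.18%). At stage 3 against stage 2, 7 members were called (21.2%, against 7.46% of all genes tested), 5 of them higher (4.92% of all genes tested) and 2 lower (2.54%) after irrigation returned. At stage 3 against stage 1, 3 members were called (9.09%, against 4.93% of all genes tested), 1 higher (2.69% of all genes tested) and 2 lower (2.24%). In all, 9 members were called in at least 1 comparison (27.3%), against 2312 of the 17729 genes tested, and 5 of the 9 were called in at least 2, as were 1181 of the 2312. The comparisons share libraries, so they are not independent of each other. Of the 33 members, 4 passed the filter only with the help of a particular stage. Among the 29 that passed without any 1 stage, a restriction chosen after seeing the data, 3 were called at stage 2 against stage 1 (10.3%, against 7.27% of 16722 genes that passed in the same way). In this set 6 were called at stage 3 against stage 2 (20.7%, against 7.12%), and 2 at stage 3 against stage 1 (6.9%, against 4.58%), both lower.

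On the log2(FPKM + 1) scale most members changed by less than 2-fold. This held for 29 members at stage 2 against stage 1, 26 at stage 3 against stage 2 and 30 at stage 3 against stage 1. The median log2 fold change of the members was -0.15, -0.03 and -0.14 in these 3 comparisons, beside 0.05, -0.06 and 0.01 over all genes tested. By the ratio of mean FPKM, some low members that were not called passed 2-fold. Examples are Cs5g01350 at stage 2 against stage 1 (0.442) and Cs2g27220 at stage 3 against stage 1 (0.485). Without the fold threshold, 12 members passed at stage 2 against stage 1, beside 38.4% of all genes tested. Of these, 4 were higher (21.2% of all genes tested) and 8 lower (17.1%). Between stage 3 and stage 2, 12 members passed, beside 36.0%, with 9 higher (16.2%) and 3 lower (19.8%). Between stage 3 and stage 1, 15 members passed, beside 27.3%, with 6 higher (14.4%) and 9 lower (12.9%). The libraries of the stages did not overlap for 14 members at stage 2 against stage 1, beside 50.0% of all genes tested, with 4 members higher (27.8%) and 10 lower (22.2%). This held for 14 members at stage 3 against stage 2, beside 46.4%, with 11 higher (19.9%) and 3 lower (26.5%). It held for 18 members at stage 3 against stage 1, beside 43.7%, with 8 higher (22.2%) and 10 lower (21.4%). These shares of members lie on either side of the shares over all genes. The highest stage mean fell in stage 1 for 16 of the 33 members (48.5%, against 29.4% of all genes tested) and in stage 2 for 9 members (27.3%, against 42.8%). The lowest stage mean fell in stage 2 for 14 members (42.4%, against 30.5%).

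**Figure D2:**
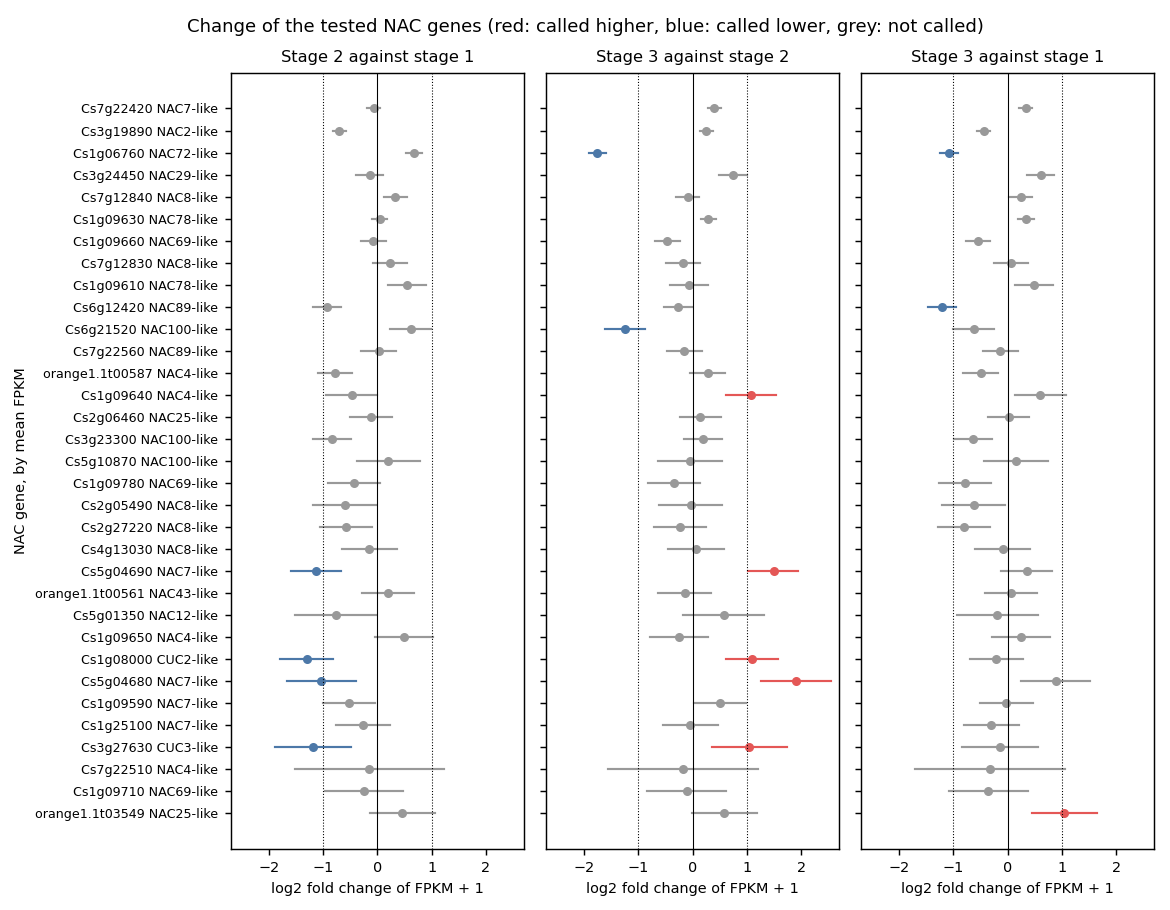
Log2 fold change of each tested NAC gene in the 3 comparisons, on the log2(FPKM + 1) scale, with 95% confidence intervals from limma as bars and dotted lines at the 2-fold threshold. Red and blue points mark genes called higher and lower, and the 4 blue points of the left panel, Cs5g04690, Cs1g08000, Cs5g04680 and Cs3g27630, are red in the middle panel.

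Both organ boundary genes of the CUC type that could be tested were lower in buds under deficit and higher again after irrigation. Cs1g08000, whose best match is CUC2-like, had 0.33, 0.33 and 0.35 FPKM at stage 2, against 3.06, 1.61 and 2.38 FPKM at stage 1, so that every stage 2 library lay below every stage 1 library. The ratio of the means was 0.143, and the log2 fold change was -1.30 ± 0.22 (SE, limma adjusted p = 7.65e-04). At stage 3 it had 2.04, 1.63 and 1.9 FPKM, again above all stage 2 libraries, and it was called higher than at stage 2, with a log2 fold change of 1.09 ± 0.22 (SE, limma adjusted p = 0.0027). Its stage 3 and stage 1 values overlapped. Under quantile normalization the call at stage 3 against stage 2 was lost, with a log2 fold change of 0.91. At FPKM this low few fragments stand behind a value, so the closeness of the stage 2 values is no measure of precision.

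Cs3g27630, whose best match is CUC3-like, had 0.91, 0 and 0.2 FPKM at stage 2, against 1.46, 1.6 and 3.24 FPKM at stage 1. It had 2.46, 1.62 and 1.22 FPKM at stage 3, and neither stage 1 nor stage 3 overlapped with stage 2. The log2 fold changes were -1.19 ± 0.32 at stage 2 against stage 1 (SE, limma adjusted p = 0.0116) and 1.04 ± 0.32 at stage 3 against stage 2 (SE, limma adjusted p = 0.0236). These calls rest on low values that vary among replicates. Without replicate 3 of stage 1 or replicate 2 of stage 2, the log2 fold change of the first comparison was -0.94 or -0.99 and the call was lost. The second was lost without replicate 2 or 3 of stage 2, at 0.85 and 0.98, without replicate 1 of stage 3, at 0.87, and under quantile normalization, at 0.89. It was also lost without replicate 2 of stage 3, where the log2 fold change was 1.07 and the limma adjusted p was 0.0516.

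The NAC100-like members, whose Arabidopsis relative is a target of the microRNA miR164 like CUC2, did not move together. Cs6g21520 had 4.8, 6.41 and 3.55 FPKM at stage 3, against 13.32, 12.2 and 12.8 FPKM at stage 2, and was called lower with a log2 fold change of -1.25 ± 0.17 (SE, limma adjusted p = 1.55e-04). At stage 1 it had 8.43, 7.1 and 8.49 FPKM, so the 3 stages did not overlap and stage 2 was the highest. The 1.6-fold higher mean at stage 2 than at stage 1 stayed under the fold threshold (log2 fold change 0.62, limma adjusted p = 0.0137). Cs3g23300 had the opposite order at the onset of deficit, with 4.23, 3.69 and 3.26 FPKM at stage 2, against 7.23, 7.02 and 7.98 FPKM at stage 1 (log2 fold change -0.83, limma adjusted p = 0.0016), also under the fold threshold. Cs5g10870, the remaining NAC100-like gene that was tested, lay between 2.94 and 7.24 FPKM, and its stages overlapped.

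**Figure D3:**
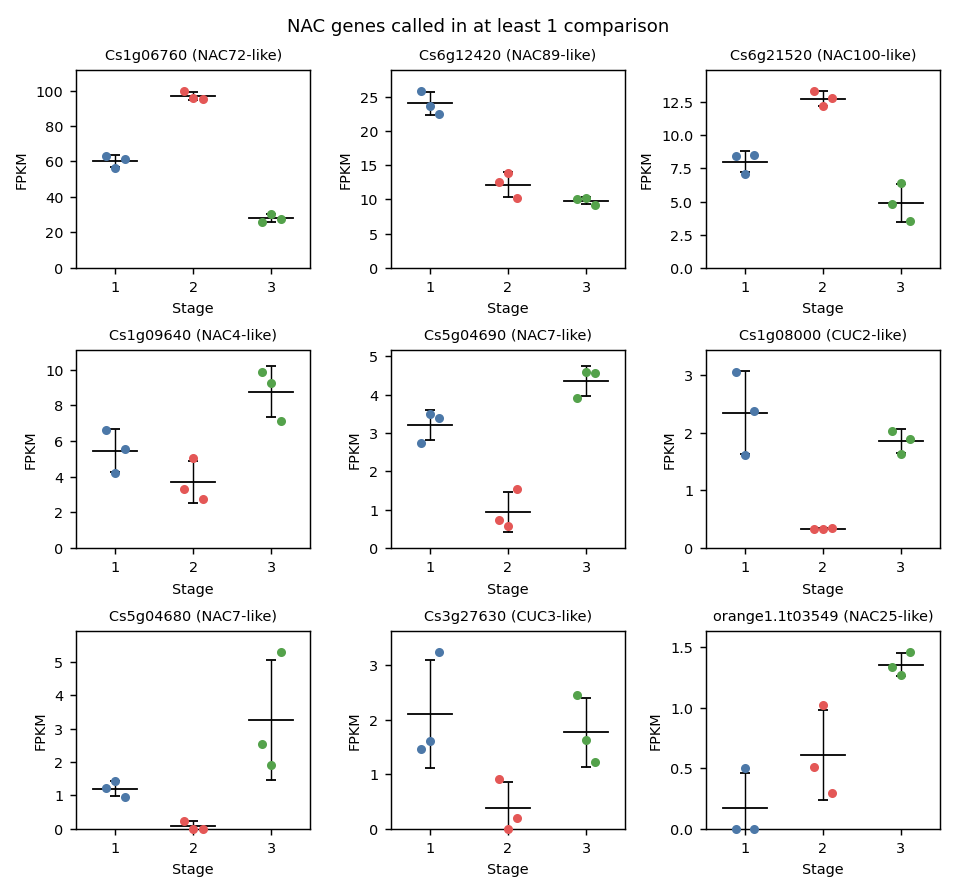
FPKM of the 9 NAC genes called in at least 1 comparison, with 1 point per library, a horizontal line at the stage mean and a bar of 1 SD (n = 3, cut off at 0). Cs1g06760 and Cs6g21520 are highest at stage 2, while the NAC7-like and CUC-like genes of the other panels are lowest there.

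Among the stress members, Cs1g06760 had the clearest course of the family. Its best match is NAC72-like, and NAC72 of Arabidopsis (RD26) activates genes under drought and abscisic acid. It had 26.06, 30.53 and 27.5 FPKM at stage 3, against 99.55, 95.98 and 95.08 FPKM at stage 2, and stage 1 lay between them with 63.24, 56.49 and 61.09 FPKM. None of the stages overlapped. It was called lower at stage 3 than at stage 2, with a ratio of the means of 0.289 and a log2 fold change of -1.76 ± 0.07 (SE, limma adjusted p = 1.06e-08). It was also called lower at stage 3 than at stage 1, with a log2 fold change of -1.08 ± 0.07 (SE, limma adjusted p = 6.76e-07). At stage 2 against stage 1 its mean was 1.61-fold higher (log2 fold change 0.68, limma adjusted p = 2.20e-05), under the fold threshold.

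Cs3g19890, which is NAC2-like after ATAF1 of Arabidopsis, a regulator of stress and abscisic acid responses, moved the other way at the onset of deficit. It averaged 80.5 ± 3.63 FPKM at stage 2 and 131 ± 6.05 FPKM at stage 1 (SD, n = 3 each), with no overlap, a ratio of 0.614 and a log2 fold change of -0.70 ± 0.06 (SE, limma adjusted p = 2.19e-06). At stage 3 it averaged 96.1 ± 1.41 FPKM. None of its differences reached 2-fold. The third stress member, orange1.1t04952 (NAC55-like), was at 0 in 7 of the 9 libraries and was not tested.

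The single senescence member was Cs3g24450, which is NAC29-like after NAP of Arabidopsis, an activator of leaf senescence. It had 85.29, 86.64 and 74.85 FPKM at stage 3, against 44.59, 42.4 and 60.2 FPKM at stage 2. The 1.68-fold difference (log2 fold change 0.75, limma adjusted p = 4.03e-04) was larger than the spread between replicates and under the fold threshold. All stage 3 libraries also lay above the stage 1 libraries, which had 56.78, 51.71 and 52.24 FPKM. Of 3 tested genes for senescence and chlorophyll breakdown, matched by name, none was called in any comparison. They did not share an order of stages. Pheophorbide a oxygenase-like Cs8g15480, which opens the chlorophyll ring, averaged 57.6, 53.5 and 46.4 FPKM at stages 1, 2 and 3, whereas the senescence-associated carboxylesterase-like genes Cs6g20190 and orange1.1t03802 averaged 3.69, 5.38 and 6.16 FPKM and 1.32, 2.35 and 1.01 FPKM.

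The secondary wall and vessel members held the most abundant gene of the family and a pair of low genes with large changes. Vessel-type NAC proteins such as NAC7 (VND4 of Arabidopsis) start the differentiation of water-conducting vessels, while NAC12 and NAC43 (SND1 and NST1) switch on wall thickening in fibres. Cs7g22420 (NAC7-like) averaged 124 ± 3.57 FPKM at stage 1, 118 ± 7.23 FPKM at stage 2 and 156 ± 3.43 FPKM at stage 3 (SD, n = 3 each). It lay higher in all stage 3 libraries than in all stage 2 libraries, by 1.32-fold (log2 fold change 0.40, limma adjusted p = 1.68e-04), and was not called.

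The neighbouring NAC7-like genes Cs5g04690 and Cs5g04680 were called lower at stage 2 than at stage 1 and higher at stage 3 than at stage 2. Cs5g04690 had 0.73, 0.58 and 1.54 FPKM at stage 2, against 2.75, 3.49 and 3.38 FPKM at stage 1, and 3.91, 4.6 and 4.57 FPKM at stage 3. Its log2 fold changes were -1.14 ± 0.21 at stage 2 against stage 1 (SE, limma adjusted p = 0.0014) and 1.49 ± 0.21 at stage 3 against stage 2 (SE, limma adjusted p = 2.27e-04). These calls were kept under every alternative that tested the gene by limma.

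Cs5g04680 had 0.24, 0 and 0 FPKM at stage 2, against 1.22, 1.42 and 0.96 FPKM at stage 1, and 2.54, 1.92 and 5.3 FPKM at stage 3. At stage 2 against stage 1 its log2 fold change was -1.03 ± 0.29 (SE, limma adjusted p = 0.0161). This call was lost without replicate 2 of stage 1, at -0.96, without replicate 2 or 3 of stage 2, at -0.98 each, and under quantile normalization, at -0.90. At stage 3 against stage 1 it was called only without replicate 2 of stage 3, at 1.11 instead of 0.88. This gene passed the filter only through its stage 3 libraries, where it is highest, so its stage 3 values had to be high and its difference of 1.90 on the log2 scale at stage 3 against stage 2 is a description and not support. Cs5g04690 and Cs5g04680 have the same best match, and reads could have been split between them in the mapping. Summed, they had 0.97, 0.58 and 1.54 FPKM at stage 2, against 3.97, 4.91 and 4.34 FPKM at stage 1 and 6.45, 6.52 and 9.87 FPKM at stage 3, so the sums had the same order of stages as each gene.

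The fibre-type members were low and were not called. Cs5g01350 (NAC12-like) had 0.65, 1.95 and 0.14 FPKM at stage 2, against 1.7, 1.53 and 2.97 FPKM at stage 1, and the stages overlapped. It was called lower at stage 2 only without replicate 2 of that stage, with a log2 fold change of -1.13 in place of -0.76. orange1.1t00561 (NAC43-like) lay between 1.45 and 3.14 FPKM at all stages. Beside these members, 10 genes of a secondary wall list matched by name could be tested. The list took any fasciclin-like arabinogalactan protein, whatever its number. At stage 2 against stage 1, 1 was called higher and 3 lower, beside 3.18% and 4.66% of all genes tested. At stage 3 against stage 2, 1 was called higher and 1 lower, beside 4.92% and 2.54%. The gene called higher at stage 2, Cs9g08750, encodes a cellulose synthase subunit of the CESA8 type, which builds secondary walls. It averaged 72.4 ± 7.82 FPKM at stage 2 and 14.9 ± 1.78 FPKM at stage 1 (SD, n = 3 each). It was called lower at stage 3, at 19.5 ± 0.981 FPKM, than at stage 2. This order, with stage 2 highest, was the reverse of that of Cs5g04690 and Cs5g04680. The fasciclin-like arabinogalactan gene Cs6g13410 (17-like) had the same order as that pair, with 43.3, 14.7 and 49.0 FPKM on average at stages 1, 2 and 3. It was called lower at stage 2 than at stage 1 and higher at stage 3 than at stage 2. Cs6g04310 (11-like) averaged 6.62, 1.76 and 3.2 FPKM at stages 1, 2 and 3. It was also called lower at stage 2 than at stage 1, and was not called at stage 3 against stage 2. The other secondary wall cellulose synthases did not share the order of Cs9g08750, since Cs4g01990 (subunit 7) averaged 1.63 FPKM at stage 2 and 4.89 FPKM at stage 1, and Cs2g04590 (subunit 8) 1.16 FPKM at stage 2 and 3.24 FPKM at stage 1. Of these, Cs4g01990 was called lower at stage 2. With Cs9g08750 as their main part, the 10 xylem markers (these cellulose synthases and laccases) summed to 26.5 to 32.9 FPKM at stage 1, 72.1 to 87.7 FPKM at stage 2 and 27.2 to 27.6 FPKM at stage 3, and their part in the values of the vessel members was not tested.

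The members named after membrane-bound NAC proteins had 1 called gene among 7 tested, beside 2312 of 17729 genes called in at least 1 comparison, so the share is near that of all genes. Their Arabidopsis relatives are anchored in membranes and released into the nucleus by cleavage, NAC89 under stress of the endoplasmic reticulum among others. Cs6g12420 (NAC89-like) had 10.05, 10.14 and 9.22 FPKM at stage 3, against 25.76, 23.67 and 22.52 FPKM at stage 1, with a ratio of the means of 0.409 and a log2 fold change of -1.21 ± 0.12 (SE, limma adjusted p = 1.58e-05). It had already 12.55, 13.77 and 10.12 FPKM at stage 2, below all stage 1 libraries, and the log2 fold change there was -0.93 (limma adjusted p = 8.68e-05). This lay just under the fold threshold, which it passed with each library scaled by its median, at -1.01, or without replicate 2 of stage 2, at -1.02. The stage 3 and stage 2 values overlapped. The other NAC89-like gene, Cs7g22560, lay between 5.13 and 7.78 FPKM throughout, with overlapping stages.

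A run of NAC genes lies on chromosome 1, judging by identifiers, which number the genes along the chromosomes of sweet orange. Between Cs1g09590 and Cs1g09780 the table has 15 genes, and 8 of them are members, all of them tested. Chromosome 1 holds 11 of the 43 members in total. The run mixes names from several groups, with 1 NAC7-like, 2 NAC78-like, 2 NAC4-like and 3 NAC69-like genes, and its members did not share a course. Cs1g09640 (NAC4-like) was the only one called. It had 9.89, 9.25 and 7.15 FPKM at stage 3, against 3.32, 5.03 and 2.74 FPKM at stage 2, with a log2 fold change of 1.07 ± 0.21 (SE, limma adjusted p = 0.0022). The call was lost without replicate 3 of stage 2, at 0.92, or without replicate 1 of stage 3, at 0.99.

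**Figure D4:**
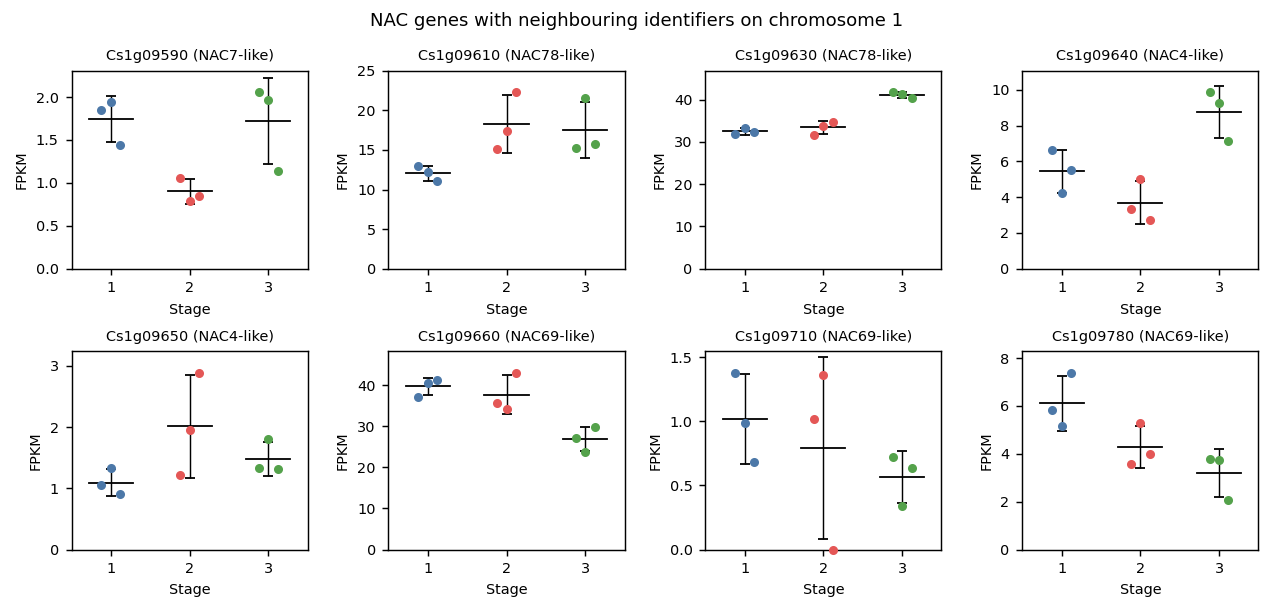
FPKM of the 8 NAC genes with neighbouring identifiers on chromosome 1, with 1 point per library, a line at the stage mean and a bar of 1 SD (n = 3). Cs1g09640 is highest at stage 3, Cs1g09660 and Cs1g09780 are lowest there, and Cs1g09590 is lowest at stage 2.

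Other genes of the run had smaller differences in both directions. The NAC69-like gene Cs1g09660 averaged 26.9 ± 2.96 FPKM at stage 3 and 39.7 ± 2.17 FPKM at stage 1 (SD, n = 3 each), with no overlap (log2 fold change -0.55, limma adjusted p = 0.0022). The NAC69-like gene Cs1g09780 averaged 3.20 FPKM at stage 3 and 6.12 FPKM at stage 1 (log2 fold change -0.78, limma adjusted p = 0.0198). In contrast, the NAC78-like genes were higher at stage 3 than at stage 1, Cs1g09630 by 1.27-fold and Cs1g09610 by 1.45-fold, with adjusted p-values of 0.0027 and 0.0401 from limma. All of these differences were under the fold threshold. Cs1g09640 and Cs1g09650 have the same best match, as do Cs1g09660, Cs1g09710 and Cs1g09780, so the split of reads within each set is uncertain. Summed, Cs1g09640 and Cs1g09650 had 11.2, 11.1 and 8.46 FPKM at stage 3, against 4.53, 6.98 and 5.63 FPKM at stage 2. The NAC69-like set summed to 31.6, 27.9 and 32.5 FPKM at stage 3, against 44.4, 46.7 and 49.4 FPKM at stage 1. Neither pair of sums overlapped.

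The 5 NAC8-like genes bear the number of SOG1, the Arabidopsis factor that governs the response to DNA damage, and none of the 5 was called in any comparison. With 2312 of 17729 genes called, this count is no result about the group. Cs7g12840, the most abundant, averaged 48.8 ± 4.07 FPKM at stage 2 and 38.7 ± 3.97 FPKM at stage 1 (SD, n = 3 each; log2 fold change 0.33, limma adjusted p = 0.0172). Cs7g12830, its neighbour by identifier, lay between 18.83 and 27.75 FPKM with overlapping stages. Cs2g27220 had 2.86, 1.43 and 2.24 FPKM at stage 3, against 3.86, 4.12 and 5.48 FPKM at stage 1. Its log2 fold change of -0.80 (limma adjusted p = 0.0173) passed the fold threshold only with smaller pseudocounts, at -1.05 and -1.08.

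Outside chromosome 1, the NAC4-like gene orange1.1t00587 had 3.85, 5.08 and 4.35 FPKM at stage 2, against 7.67, 8.42 and 8.73 FPKM at stage 1 (log2 fold change -0.78, limma adjusted p = 0.0015), under the fold threshold. Of the NAC25-like genes, Cs2g06460 lay between 4.31 and 7.16 FPKM with overlapping stages. The low gene orange1.1t03549 had 1.34, 1.27 and 1.46 FPKM at stage 3, against 0, 0.5 and 0 FPKM at stage 1. Its log2 fold change was 1.04, and without replicate 1 or 3 of stage 1 it was 0.94 and the call was lost. It had passed the filter only through stage 3, where it is highest, so this difference is a description and not support. It is the only member counted as called higher at stage 3 than at stage 1.

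The 10 members that were not tested stayed at or below 1.3 FPKM in every library and averaged at most 0.348 FPKM. They were at 0 in 1 to 8 of the 9 libraries. They include a second CUC2-like gene (orange1.1t00591), a NAC21/22-like gene (Cs5g15470), a NAC68-like gene (Cs5g31140), the fourth NAC100-like gene (Cs7g26800), 2 NAC7-like genes (Cs9g14460 and Cs5g09270), the NAC90-like gene Cs6g14240, the NAC55-like gene above, and genes matched to NAM-B2-like (Cs7g20190) and ONAC010-like (Cs7g11240) proteins. Just inside the filter, orange1.1t03549 averaged 0.71 FPKM, and just outside it, Cs5g31140 averaged 0.348 FPKM. Besides orange1.1t03549 and Cs5g04680, Cs7g22510 (NAC4-like) and Cs1g09710 (NAC69-like) passed only with the help of particular stages, and the other 29 would have passed without any one stage.

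The best match leaves some NAC genes unnamed, since 54.2% of the genes tested have a hypothetical or unknown protein as best match. In the annotation of the study, 4 further genes are described as NAC genes whose best match in the deposited table is a hypothetical protein. They were picked by the study for changing in these libraries, so their values are given as a description without a test. Cs1g08440, described as NAC2-like, had 404.75, 408.35 and 414.93 FPKM at stage 3, against 139.6, 132.23 and 121.55 FPKM at stage 2 and 210.72, 224.82 and 215.04 FPKM at stage 1. This is above every member found by the rule. Its neighbour Cs1g08450, also NAC2-like, averaged 59.8, 39.1 and 112 FPKM at stages 1, 2 and 3, and Cs8g14700, described as NAC90-like, averaged 24.7, 14.5 and 40.8 FPKM. These 3 genes were lowest at stage 2 and highest at stage 3. Cs5g26130, described as NAC29, was highest under deficit, with 21.13, 21.75 and 24.23 FPKM at stage 2, against 6.52, 7.88 and 7.85 FPKM at stage 1, and 10.13, 10.62 and 8.78 FPKM at stage 3. It thus differs in order from Cs3g24450, the member with the same number, which was highest at stage 3.

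**Figure D5:**
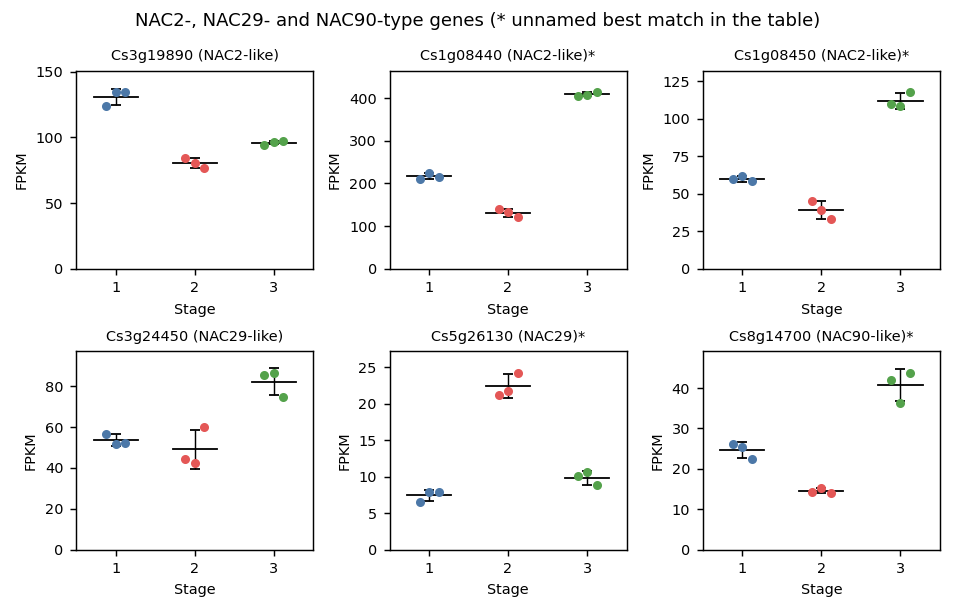
FPKM of NAC2-, NAC29- and NAC90-type genes, with 1 point per library, a line at the stage mean and a bar of 1 SD (n = 3). The genes with an asterisk have an unnamed best match and lie outside the 43 members. Cs1g08440, Cs1g08450 and Cs8g14700 are highest at stage 3, whereas Cs3g19890 is highest at stage 1 and Cs5g26130 at stage 2.

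Genes of drought and abscisic acid were counted beside the stress members, in a list of 10 tested genes matched by name. At stage 2 against stage 1 none was called higher and 6 were called lower, with a median log2 fold change of -1.19. Over all genes tested, 3.18% were called higher and 4.66% lower. The 6 included Cs8g05940 and Cs6g19380, whose best matches are abscisic acid 8'-hydroxylases, the enzymes that break down abscisic acid, and 4 late embryogenesis abundant proteins, which accumulate in drying seeds. Cs8g05940 averaged 3.69 ± 0.37 FPKM at stage 2 and 44.0 ± 2.36 FPKM at stage 1, and Cs6g19380 averaged 6.66 ± 0.642 FPKM at stage 2 and 16.9 ± 0.966 FPKM at stage 1 (SD, n = 3 each). The dehydrin-like gene Cs3g26970 averaged 317 FPKM at stage 2 and 470 FPKM at stage 1 and was not called. The most abundant gene of the list, the Lea5-type Cs9g04210, went the other way, with 2940 ± 366 FPKM at stage 2 and 2090 ± 125 FPKM at stage 1 (SD, n = 3 each; log2 fold change 0.49, limma adjusted p = 0.0228), and was not called either. The low gene Cs5g31080, also a late embryogenesis abundant type, averaged 1.86 FPKM at stage 2 and 1.32 FPKM at stage 1. At stage 3 against stage 2, 3 of the list were called higher and 1 lower, beside 4.92% and 2.54% of all genes tested. At stage 3 against stage 1, 1 was called higher and 5 lower, beside 2.69% and 2.24%. The median log2 fold change of the list there was -1.11. The 2 VOZ1-like genes, from a family related to the NAC proteins, were not called, and Cs2g05390 averaged 45.7 FPKM at stage 2 and 75.2 FPKM at stage 1.

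Of the 14 calls of members, 8 were kept under every alternative that could test the gene by limma, and no call reversed its direction. The 8 include Cs5g04680 at stage 3 against stage 2. That gene passed the filter only through stage 3, so this kept call is no support. The NOISeq-style probability, which follows the criterion of the study, called 0 members at stage 2 against stage 1, where limma called 4. Its 2-fold threshold lay on the ratio of mean FPKM, while that of limma lay on log2(FPKM + 1). The 4 genes called by limma passed this 2-fold threshold, with log2 ratios from -3.79 to -1.76. Their probabilities, 0.472 to 0.624, were under the required 0.8. At stage 2 against stage 1, Cs3g19890, Cs1g06760 and Cs6g12420 stayed under the fold threshold though they passed the NOISeq-style probability. It called 2 members in each of the other comparisons, Cs1g06760 and Cs6g21520 lower at stage 3 than at stage 2 and Cs1g06760 and Cs6g12420 lower at stage 3 than at stage 1. Over all genes it called 4.29% at stage 2 against stage 1, 4.17% at stage 3 against stage 2 and 3.1% at stage 3 against stage 1. Of the 9 called genes, 5 averaged under 3 FPKM over the 9 libraries, where few fragments stand behind a value.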

How the data were processed

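The authors sequenced RNA of lemon buds, filtered the reads, mapped them to the sweet orange genome with BWA and deposited FPKM values with 2 decimals, 1 column per library. For tool versions and the counting program, the sources used here give nothing. FPKM is already scaled for gene length and library size, so depth in reads cannot be read from it. From 543 low genes whose values were whole multiples of 1 step within 0.12 steps, the relative depth of the libraries was 0.975 to 1.02. This choice of genes bounds every ratio used to within 0.12 of equal depth, so a larger difference in depth could not have been seen.

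Column names give stage and replicate, and all 9 columns were used. Log2(FPKM + 1) was fitted with limma 3.58.1 (R 4.3.3) with its trend option, on genes with at least 1 FPKM in at least 3 of 9 libraries and 1 mean per stage over all libraries, and p-values were adjusted by Benjamini-Hochberg over all 17729 genes. In simulated data for stage 2 against stage 1, with 17561 genes tested, 190 of 200 changed genes were recovered. Recovery at the low FPKM and the fold changes of the members called in this comparison was not tested. NOISeq, the study's method, was replaced by a NOISeq-style probability (0.8 or more, 2-fold or more, values of 0 replaced by 0.01). Other alternatives were no trend, quantile normalization, median scaling, other filters and pseudocounts, only the libraries compared, a replicate block, no fold threshold and each library left out.

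Members were grouped by the number in the best match. The genes named are those called, the most abundant of the family and of each group, and the largest changes not called, and the others were named after their values were seen. The members and lists were chosen with earlier results of these data known. Sequences and coordinates were not used here.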

Additional observations from a re-analysis of the deposited data

How the results depend on the processing

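No called difference of a named gene changed its direction under any alternative. Among the differences not called, 5 took both signs, namely Cs1g09630 at stage 2 against stage 1 (-0.04 to 0.08 on the log2 scale), Cs2g06460 at stage 3 against stage 2 (-0.01 to 0.29), and at stage 3 against stage 1 Cs2g06460 (-0.13 to 0.17), Cs7g12830 (-0.03 to 0.23) and Cs3g27630 (-0.32 to 0.11). At stage 2 against stage 1 the count of called members, 4 and all lower, was 0 with a filter of at least 5 FPKM and 0 by the NOISeq-style probability, and 12 (4 higher, 8 lower) without a fold threshold. At stage 3 against stage 2 the count of 7 was 3 (1 higher) with that filter, 2 (0 higher) by the NOISeq-style probability and 12 (9 higher) without a fold threshold, and under quantile normalization 3 in place of 5 members were called higher. At stage 3 against stage 1 the 1 member called higher was lost with that filter and by the NOISeq-style probability (0 higher in each), and also when only genes that passed the filter without any 1 stage were counted (0 higher), and the count was 15 (6 higher, 9 lower) without a fold threshold. The filter of at least 5 FPKM removes the low genes that carry most of these calls.

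With each library left out in turn, 3 to 4 members were called at stage 2 against stage 1 (0 higher, 3 to 4 lower), 5 to 7 at stage 3 against stage 2 (3 to 5 higher, 2 lower) and 2 to 4 at stage 3 against stage 1 (0 to 2 higher, 2 lower). The fit with the replicate number as a replicate block called 4, 7 and 3 members, as without it. Libraries with the same number did not deviate together (correlations -0.102 to 0.032 over 9 pairs, against -0.081 to 0.105 over 18 other pairs). No effect shared by a number was thus seen. These correlations cannot show whether a number stands for the same group of trees at each stage.

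The deposited values carry no read counts, so the precision of low FPKM values could not be computed, and for genes with the same best match the split of reads was not tested.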
